A study of Mus musculus with 6 samples.

Results

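Glutamate and GABA receptor genes were followed by RNA sequencing of brain from 3 Kdm5c deficient mice and 3 wild-type littermates, all of them adult males. The genes were taken from the expression table by symbol, as the AMPA (Gria), delta (Grid), kainate (Grik), NMDA (Grin), metabotropic glutamate (Grm), GABA-A (Gabr) and GABA-B (Gabbr) subunit and receptor genes, leaving out Gabra6. The rule found 46 genes among 43346 rows of the table: 4 AMPA, 2 delta, 5 kainate, 7 NMDA, 8 metabotropic glutamate, 18 GABA-A and 2 GABA-B genes. All mice were offspring of a heterozygous Kdm5c deficient mother on C57BL/6 and a wild-type father of a 129 strain. Both genotypes therefore share a mixed background on the autosomes, while the X chromosome of these males comes from the mother. Kdm5c is an X-linked gene that encodes a demethylase of histone H3 lysine 4. The labels name neither the allele nor the brain region dissected.

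Glutamate is the main excitatory transmitter of the brain and GABA the main inhibitory transmitter. AMPA, kainate and NMDA receptors are cation channels built from several subunits, and GABA-A receptors are chloride channels built from alpha, beta and further subunits. Metabotropic glutamate receptors and GABA-B receptors signal through G proteins. Subunit choice sets the kinetics, drug response and location of a receptor and differs strongly between brain regions and cell types, the cerebellum in particular.

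The libraries held 20221675 to 24555412 counts, and no pair from one genotype agreed within sampling noise. Kdm5c itself had 73.9, 65.5 and 78.9 CPM (counts scaled to library size) in the deficient mice, against 77.6, 82.8 and 84.0 CPM in the wild-type mice. That difference did not pass the test (adjusted p = 0.196 in edgeR), and since the counts do not resolve exons it does not check the genotype labels. Deficient mouse 2 stood apart in cerebellar RNA. The summed level of 13 cerebellar markers was 1151, 150.0 and 844.6 CPM in deficient mice 1, 2 and 3, against 1245, 1343 and 1427 CPM in the wild-type mice, and none of the 13 was at 0 reads in any mouse. The sum of 11 cortical and hippocampal markers was 1025, 1352 and 1239 CPM in deficient mice, against 1066, 954.3 and 1117 CPM in wild-type mice. Its largest part was Mef2c, at 470.0, 664.9 and 612.2 CPM in deficient mice, against 492.8, 421.6 and 524.5 CPM in wild-type mice. Cux2 was lower without overlap, at 78.45 to 86.74 CPM in deficient and 88.37 to 97.09 CPM in wild-type mice. None of the 11 passed the test. Pan-neuronal markers summed to 7146 to 8037 CPM in deficient and 7017 to 7332 CPM in wild-type mice, so the label brain was met by all 6 libraries. Many of the results below that move with the cerebellar markers are given with and without deficient mouse 2.

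The receptor genes differed more among themselves than between the genotypes. On the scale of CPM per kilobase of annotated exon, Gabbr1, which encodes the ligand-binding subunit of the GABA-B receptor, was at the top with 115.0 ± 5.40 in deficient and 113.4 ± 2.05 in wild-type mice (SD, n = 3 each). The AMPA subunit gene Gria1 followed with 81.5 ± 2.34 in deficient and 80.3 ± 2.13 in wild-type mice (CPM per kilobase, SD, n = 3 each). Gabbr2, which encodes the other GABA-B subunit, was at 66.0 ± 2.50 in deficient and 65.0 ± 3.27 in wild-type mice on that scale (SD, n = 3 each). Among tested genes the lowest were Gabre, Gabrr2 and Grin3b, with means under 1 CPM per kilobase in both genotypes. Too few reads were counted to test 4 genes. Grm6 and Gabrp, known from retinal bipolar cells and from peripheral epithelia, each had 1 read in deficient mouse 1 and 0 in the other 5 mice. Gabrr3 had 2 reads in deficient mice and 1 in wild-type mice, and Gabrr1, a subunit gene known from retina, had 10 reads in deficient mice and 12 in wild-type mice.

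**Figure D1:**
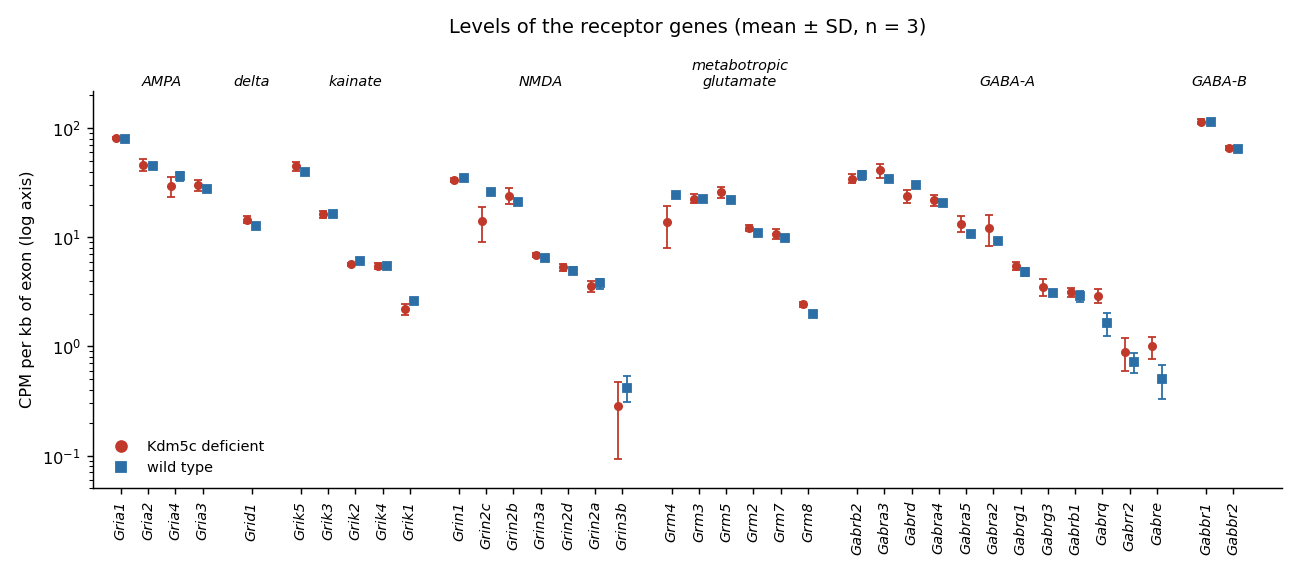
Mean level of 37 tested receptor genes in CPM per kilobase of annotated exon (log axis), by class and ordered within a class by the wild-type level. Bars are SD over 3 mice. The genotypes lie close together for most genes, with Gabbr1 at the top at 115.0 in deficient and 113.4 in wild-type mice, and stand apart for Gabrq, Gabre, Grin2c and Grm4.

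Over all 42 tested genes, 2 were higher in deficient brain at an adjusted p under 0.05 in edgeR, Gabrq and Grm8, and none was lower (quasi-likelihood test). That is 4.76% of the tested members, beside 4.93% called in either direction among all 15127 genes tested. Over all genes tested, 2.45% were called higher and 2.48% lower. At an unadjusted p under 0.05 there were 14 members, 10 higher and 4 lower, a share of 33.3% beside 24.9% of all genes tested. DESeq2 called 4 members, Gabrq, Gabre and Grm8 higher and Gabrd lower, beside 8.31% of the genes it adjusted. The values of 12 members did not overlap between the genotypes (28.6%, beside 30.8% of all genes tested). The median log2 fold change of the members, deficient over wild type, was 0.08, against a median of 0.00 over all genes, and 25 of the 42 lay within 0.2 of 0. The count of calls depended on the mice. Without deficient mouse 1 it was 15 higher and 5 lower, or 47.6% of the tested members. In that fit 7.16% of all genes were called higher and 6.48% lower (13.6% in all). Without deficient mouse 2 the count was 1 higher and 2 lower, or 7.14% of the tested members. There 2.35% of all genes were called higher and 2.12% lower (4.47% in all). Leaving out wild-type mouse 2 gave 1 higher (2.38%), where 0.346% of all genes were called. With deficient mouse 3, wild-type mouse 1 or wild-type mouse 3 left out the count was 0 in edgeR, where 1.01%, 0.289% and 0.648% of all genes were called. In these fits 10, 10 and 13 members had an unadjusted p under 0.05 in edgeR. Those are 23.8%, 23.8% and 31.0% of the tested members, beside 21.3%, 19.1% and 19.7% of all genes. Exons of 20 of the 46 genes overlap another annotated gene, whose reads may not be told apart from theirs.

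**Figure D2:**
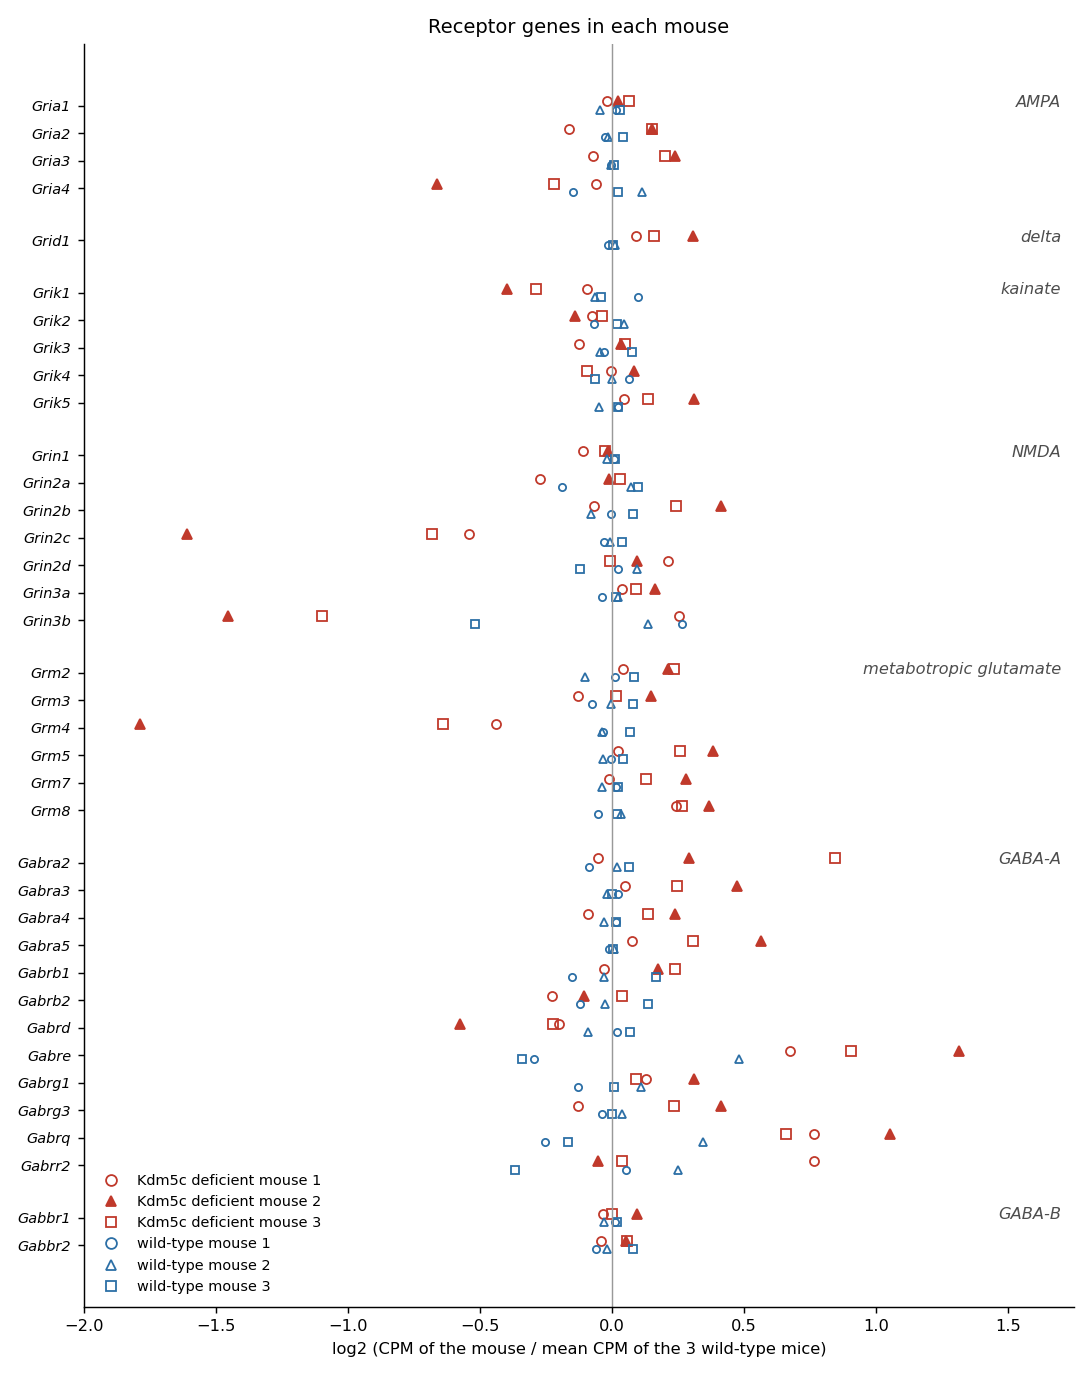
Each mouse's level of 37 tested receptor genes as log2 of its CPM over the mean of the 3 wild-type mice. Red symbols are deficient mice, with mouse 2 filled, and blue symbols are wild-type mice. Deficient mouse 2 is the lowest for Grm4, Grin2c, Gria4 and Gabrd and the highest for Gabre and Gabrq.

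The member with the lowest adjusted p was Gabrq, the gene of the theta subunit of the GABA-A receptor, which is known from hypothalamus and from monoamine neurons of the brainstem. Gabrq had 14.9, 18.2 and 13.9 CPM in the deficient mice, against 7.37, 11.2 and 7.83 CPM in the wild-type mice. Every deficient mouse was above every wild-type mouse, with wild-type mouse 2 the closest to them. The mean was 15.7 ± 2.28 CPM in deficient and 8.78 ± 2.07 CPM in wild-type mice (SD, n = 3 each), a log2 fold change of 0.84 ± 0.17 (SE) with an adjusted p of 0.0309 in edgeR. The call held without deficient mouse 2 (0.72 ± 0.16, SE, adjusted p = 0.0331 in edgeR) and in 12 of 15 alternatives. It was lost without deficient mouse 3, wild-type mouse 1 or wild-type mouse 3, at adjusted p of 0.0577, 0.118 and 0.106 in edgeR. In the authors' deposited table, whose fold changes are wild type over deficient and shrunken, Gabrq had a log2 fold change of -0.62.

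Gabrq lies on chromosome X (GRCm38, 72825178 to 72842602, plus strand) beside Gabra3 (72432681 to 72656848) and Gabre (72255999 to 72274803), the genes of the alpha3 and epsilon subunits, both on the minus strand. These 3 genes form 1 of the 4 clusters that hold most GABA-A genes of the mouse. Kdm5c lies on the same chromosome (152233020 to 152274535). Gabre had 3.81, 5.92 and 4.47 CPM in deficient mice, against 1.94, 3.33 and 1.88 CPM in wild-type mice. As for Gabrq, deficient mouse 2 was the highest of all and wild-type mouse 2 the highest of its genotype. Its log2 fold change of 1.01 ± 0.25 (SE) was the highest among the tested members but missed the threshold (adjusted p = 0.055 in edgeR). It passed without deficient mouse 1 (adjusted p = 0.0224 in edgeR), and was 0.81 ± 0.24 (SE) without deficient mouse 2 (adjusted p = 0.0913 in edgeR). Gabra3 had 139.9, 187.4 and 160.4 CPM in deficient mice, against 137.3, 133.4 and 135.0 CPM in wild-type mice. The genotypes did not overlap, though deficient mouse 1 was close to the wild-type mice, and the log2 fold change of 0.27 ± 0.09 (SE) did not pass (adjusted p = 0.124 in edgeR, and 0.014 without deficient mouse 1). It was 0.15 with deficient mouse 2 left out (adjusted p = 0.195 in edgeR).

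Promoter windows of these 3 neighbours and of Grm8 are printed to show how the starts of the genes differ. They run from 250 bases before to 50 bases after a RefSeq transcript start on GRCm38.p6, on the strand of the gene, and capitals mark the dinucleotide CG. Gabrq and Gabre had 1 window each, Gabra3 had 2 and Grm8 had 3. Of several, the most upstream was taken, and the others are not described here. RefSeq windows were at hand for 31 of the 46 receptor genes.
Gabrq (chrX:72824928-72825227, plus strand): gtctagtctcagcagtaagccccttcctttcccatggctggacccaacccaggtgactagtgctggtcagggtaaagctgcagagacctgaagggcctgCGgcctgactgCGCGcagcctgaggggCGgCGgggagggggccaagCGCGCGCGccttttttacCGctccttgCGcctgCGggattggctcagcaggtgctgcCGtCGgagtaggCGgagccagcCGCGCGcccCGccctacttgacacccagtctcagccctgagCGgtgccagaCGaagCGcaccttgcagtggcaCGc
Gabre (chrX:72274672-72274971, minus strand): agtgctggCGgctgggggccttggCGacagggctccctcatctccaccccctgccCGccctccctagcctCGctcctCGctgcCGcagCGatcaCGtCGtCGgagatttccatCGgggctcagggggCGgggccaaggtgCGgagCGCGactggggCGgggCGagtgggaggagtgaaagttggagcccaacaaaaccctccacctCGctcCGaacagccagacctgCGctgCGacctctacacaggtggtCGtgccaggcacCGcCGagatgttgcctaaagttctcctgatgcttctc
Gabra3 (chrX:72656870-72657169, minus strand): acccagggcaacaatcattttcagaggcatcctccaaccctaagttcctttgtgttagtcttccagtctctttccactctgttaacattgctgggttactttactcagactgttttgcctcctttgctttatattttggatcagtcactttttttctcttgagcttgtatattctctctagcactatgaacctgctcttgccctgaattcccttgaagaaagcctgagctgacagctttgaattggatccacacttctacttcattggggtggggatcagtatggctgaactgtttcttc
Grm8 (chr6:28135097-28135396, minus strand): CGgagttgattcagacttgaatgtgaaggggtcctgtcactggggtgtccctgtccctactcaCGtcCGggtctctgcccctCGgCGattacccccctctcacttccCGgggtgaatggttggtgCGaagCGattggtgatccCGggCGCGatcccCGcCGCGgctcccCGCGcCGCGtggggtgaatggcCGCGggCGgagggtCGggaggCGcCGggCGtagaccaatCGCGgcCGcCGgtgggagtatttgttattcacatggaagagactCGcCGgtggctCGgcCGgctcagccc
The Gabrq and Gabre windows held 23 and 24 CG and the most upstream Grm8 window 33, while the most upstream Gabra3 window held 0. The median over all 32851 windows of this length was 7 CG, and 21.5%, 20.0% and 8.56% of windows had at least as many as Gabrq, Gabre and Grm8. A window without CG, like that of Gabra3, made up 5.43%. The GC box GGGCGG, searched on both strands as GGGCGG and CCGCCC, occurred 2 times in the Gabrq window, 3 times in that of Gabre, 1 time in that of Grm8 and 0 times in that of Gabra3, and 35.7% of all windows held it. A match is a description of the letters only, and neither binding nor histone marks were measured.

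**Figure D3:**
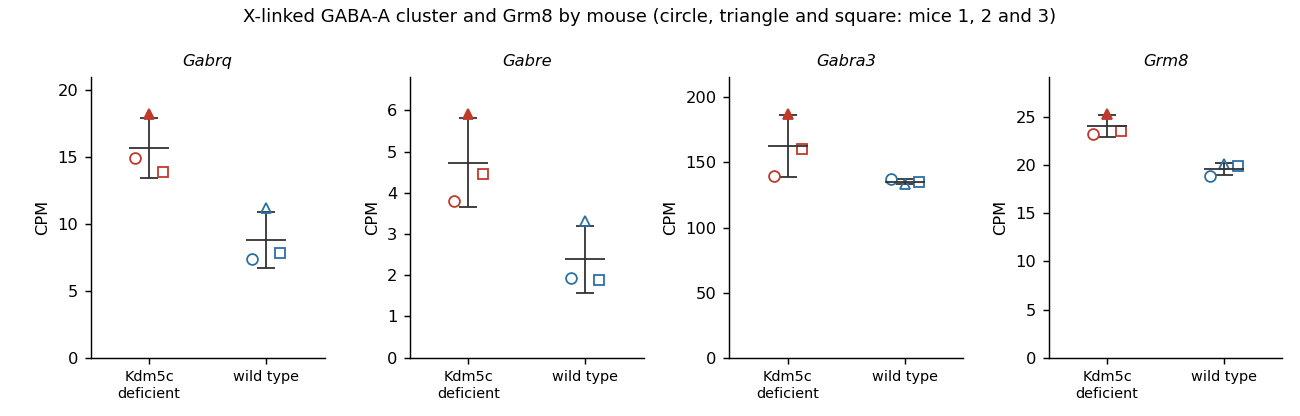
CPM of Gabrq, Gabre, Gabra3 and Grm8 in each mouse, with the mean and SD (n = 3 per genotype). In all 4 panels the 3 deficient mice lie above the 3 wild-type mice. The lowest deficient and highest wild-type values are 3.81 and 3.33 CPM for Gabre and 139.9 and 137.3 CPM for Gabra3.

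Because theta and epsilon subunits are known from hypothalamus and brainstem, markers of these regions are given beside them. The sum of 10 hypothalamic markers was 57.3, 67.1 and 56.3 CPM in deficient mice, against 28.3, 50.3 and 31.8 CPM in wild-type mice. Here too deficient mouse 2 and wild-type mouse 2 were the highest of their genotypes and the genotypes did not overlap. Of the 10, the peptide genes Avp, Pomc and Trh passed the test and were higher in deficient mice (adjusted p = 0.048, 0.0332 and 0.0449 in edgeR). Pomc is also a pituitary gene. It had 60, 97 and 107 reads in deficient mice, against 31, 44 and 34 reads in wild-type mice. The growth hormone gene Gh, a pituitary marker, was read 2, 1 and 305 times in deficient mice, against 0 times in all 3 wild-type mice. The sum of 5 pituitary markers was 0.705, 0.294 and 16.0 CPM in deficient mice, against 0.526, 0.587 and 0.394 CPM in wild-type mice, so deficient mouse 3 was the highest for both Pomc and these markers. The hypothalamic markers Hcrt and Pmch overlapped between genotypes, with Hcrt at 3.18 to 4.53 CPM in deficient and 3.72 to 3.92 CPM in wild-type mice. Otp also overlapped, at 2.12 to 5.03 CPM in deficient and 2.45 to 4.99 CPM in wild-type mice. Oxt, at 7.90 to 11.8 CPM in deficient and 1.88 to 6.80 CPM in wild-type mice, did not overlap but did not pass (adjusted p = 0.0866 in edgeR). Sim1 did not overlap either, and was higher in deficient mice without passing (adjusted p = 0.279 in edgeR). Six6 had 12, 7 and 3 reads in deficient mice, against 0, 2 and 1 reads in wild-type mice. Agrp was under 0.3 CPM in every mouse. The sum of 11 hindbrain markers was 108.6, 40.9 and 41.7 CPM in deficient mice, against 99.1, 147.4 and 87.9 CPM in wild-type mice. Most of it was the single gene Slc6a5, at 82.3, 30.8 and 36.7 CPM in deficient mice, against 79.5, 127.1 and 67.6 CPM in wild-type mice. Hoxb2 was at 0 reads in 5 of 6 mice. Among the 11 are markers of monoamine neurons. The serotonin synthesis gene Tph2 was at 20.8, 4.24 and 0.921 CPM in deficient mice, against 14.4, 12.3 and 15.8 CPM in wild-type mice. Fev, a transcription factor gene of serotonin neurons, had 14, 1 and 0 reads in deficient mice, against 7, 8 and 6 reads in wild-type mice. Slc6a2, the noradrenaline transporter gene, was at 2.49 to 3.78 CPM in deficient and 2.41 to 3.47 CPM in wild-type mice. The part of tissue composition in the values of Gabrq and Gabre was not tested. In whole tissue, a different number of cells of a type and a different amount of RNA per cell cannot be told apart.

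Grm8, the gene of a presynaptic metabotropic receptor that is coupled to inhibition of adenylyl cyclase, rose less but with little spread. It had 23.2, 25.3 and 23.5 CPM in deficient mice, against 18.9, 20.1 and 19.9 CPM in wild-type mice. Every deficient mouse was above every wild-type mouse. It passed the test at a log2 fold change of 0.29 ± 0.07 (SE) and an adjusted p of 0.0431 in edgeR. The call held only without deficient mouse 1 (adjusted p = 0.0261 in edgeR) among the 6 fits that left out a mouse. In the other 5 the log2 fold change was 0.25 to 0.31 and the call was lost. The adjusted p in edgeR was 0.0735 when deficient mouse 2 was left out, 0.0908 when deficient mouse 3 was left out, and 0.148, 0.143 and 0.116 when wild-type mice 1, 2 and 3 were. Exons of Grm8 overlap those of the microRNA gene Mir592 on the same strand.

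The lowest log2 fold changes were in receptor genes known from the cerebellum. Grin2c, the gene of the GluN2C subunit of the NMDA receptor, known from cerebellar granule cells and from astrocytes, had 89.3, 42.6 and 81.1 CPM in deficient mice, against 127.3, 129.3 and 133.7 CPM in wild-type mice. Grm4, a presynaptic metabotropic receptor gene of granule cells, had 108.8, 42.8 and 94.8 CPM in deficient mice, against 144.3, 143.6 and 154.9 CPM in wild-type mice. In both genes every deficient mouse was below every wild-type mouse and mouse 2 was far below mice 1 and 3. The log2 fold changes were -0.88 ± 0.22 for Grin2c and -0.85 ± 0.27 for Grm4 (SE), and neither passed with all mice (adjusted p = 0.0553 and 0.1 in edgeR). Without deficient mouse 2 both genes fell by less but passed, at -0.61 ± 0.06 for Grin2c and -0.54 ± 0.07 for Grm4 (SE), with adjusted p of 0.000576 and 0.00313 in edgeR. They also passed without deficient mouse 1, at -1.07 and -1.10 (adjusted p = 0.015 and 0.0259 in edgeR).

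The low values of Grin2c and Grm4 stood beside a lower sum of cerebellar markers in the same mice, but in mouse 1 the single markers were split. There Cbln3, Fat2, En2, Pcp2, Car8, Ppp1r17 and Zic1 were below every wild-type mouse. Zic2, Barhl1 and Crtam were inside the wild-type range. En1, Zic4 and Gdf10, at 3.29, 17.06 and 51.7 CPM, were above the highest wild-type values of 2.789, 16.88 and 48.02 CPM. In deficient mouse 1 the 13 markers summed to 1151 CPM, against 1245 CPM in the lowest wild-type mouse, while Grin2c was at 89.3 CPM, against 127.3 CPM in the lowest wild-type mouse. In deficient mouse 3 the sum was 844.6 CPM and Grin2c 81.1 CPM, and in mouse 2 the sum was 150.0 CPM and Grin2c 42.6 CPM. All 13 markers were lowest in deficient mouse 2 except En1, which was lowest in mouse 3. None of the 13 passed the test between genotypes with all mice. The part of the cerebellar share of the tissue in the values of Grin2c and Grm4 was not tested. For astrocytes, where Grin2c is also known, 8 markers summed to 2039, 1576 and 1831 CPM in deficient mice, against 1765, 1811 and 1779 CPM in wild-type mice. Most of that sum was Aldoc, at 1216, 873.2 and 1015 CPM in deficient mice, against 1038, 1086 and 1048 CPM in wild-type mice. Of the 8, only Gja1 passed (adjusted p = 0.0311 in edgeR). It was higher, at 321.5, 314.7 and 337.3 CPM in deficient mice, against 271.8, 274.5 and 282.3 CPM in wild-type mice.

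Gria4 and Gabrd, also known from cerebellar cells, were lowest in deficient mouse 2. Gria4, an AMPA subunit gene with high levels in Bergmann glia and granule cells, had 218.6, 144.3 and 195.9 CPM in deficient mice, against 206.2, 246.6 and 232.0 CPM in wild-type mice. The genotypes overlapped, and its log2 fold change of -0.29 ± 0.14 (SE) did not pass (adjusted p = 0.221 in edgeR). With deficient mouse 2 left out it was -0.14 (adjusted p = 0.348 in edgeR). Gabrd, the gene of the delta subunit of extrasynaptic GABA-A receptors in granule cells of cerebellum and dentate gyrus, had 74.8, 57.8 and 73.7 CPM in deficient mice, against 87.2, 80.9 and 90.2 CPM in wild-type mice. Unlike Gria4, Gabrd did not overlap between genotypes. Its log2 fold change was -0.33 ± 0.09 (SE, adjusted p = 0.0832 in edgeR), and -0.21 ± 0.06 without deficient mouse 2 (SE, adjusted p = 0.0674 in edgeR). It passed without deficient mouse 1 (adjusted p = 0.0319 in edgeR).

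**Figure D4:**
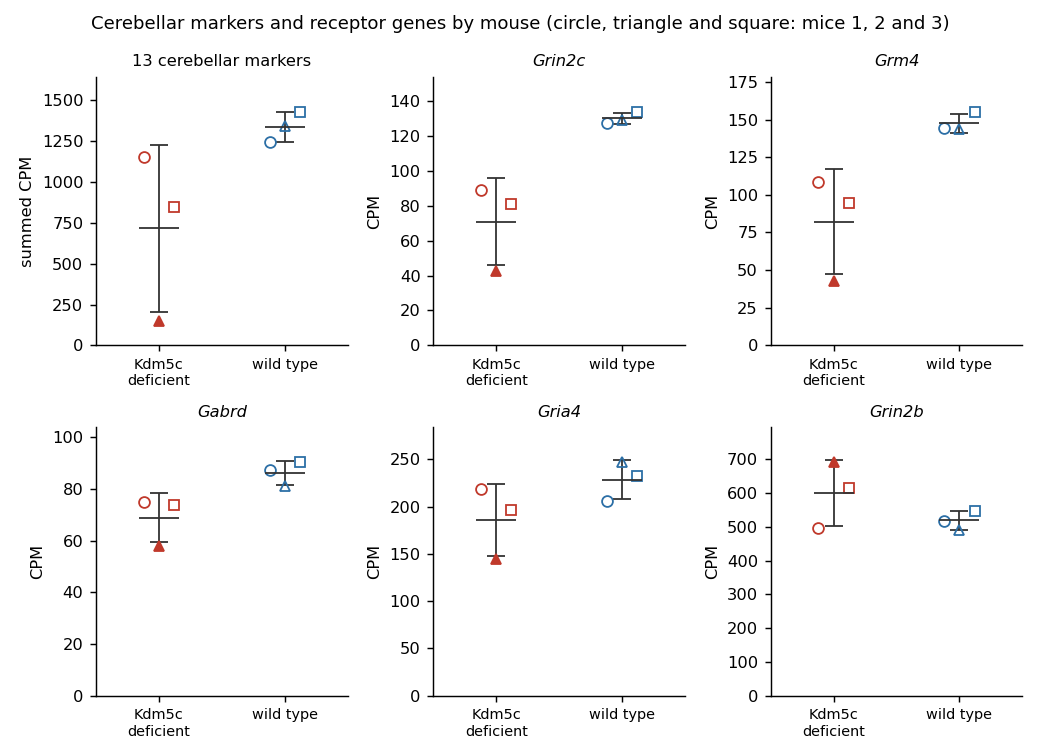
Summed CPM of 13 cerebellar markers and CPM of 5 receptor genes in each mouse, with the mean and SD (n = 3 per genotype). Deficient mouse 2, filled, is the lowest point for the markers, at 150.0 CPM, and for Grin2c, Grm4, Gabrd and Gria4, and the highest for Grin2b, at 690.4 CPM.

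Among NMDA receptor genes, Grin1, the subunit gene common to these receptors, had 313.2 to 334.1 CPM in deficient and 333.6 to 341.0 CPM in wild-type mice. Grin2b, the GluN2B subunit gene of forebrain neurons, had 495.0, 690.4 and 613.5 CPM in deficient mice, against 517.1, 491.4 and 547.5 CPM in wild-type mice. Deficient mouse 1 lay in the wild-type range, and the log2 fold change of 0.21 ± 0.11 (SE) did not pass (adjusted p = 0.26 in edgeR, 0.0163 without deficient mouse 1). Without deficient mouse 2 it was 0.10 (adjusted p = 0.57 in edgeR). Grin3a, which encodes a subunit that lowers calcium flux, was at 81.6, 89.0 and 84.8 CPM in deficient mice, against 77.4, 80.8 and 80.3 CPM in wild-type mice, with a log2 fold change, with SE, of 0.10 ± 0.05 (adjusted p = 0.254 in edgeR). Grin2a and Grin2d overlapped between genotypes. The motor neuron subunit gene Grin3b was at 0.504 to 1.65 CPM in deficient and 0.962 to 1.66 CPM in wild-type mice, and its exons overlap those of Tmem259 on the other strand.

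Set against each other per kilobase, the GluN2 subunit genes took different shares in the genotypes. Grin2c made up 38.1%, 18.7% and 32.5% of the summed GluN2 level in deficient mice, against 46.4%, 46.9% and 46.4% in wild-type mice. Grin2b made up 42.8%, 61.4% and 49.8% in deficient mice, against 38.2%, 36.2% and 38.6% in wild-type mice. Grin2d made up 12.3%, 11.7% and 9.93% in deficient mice, against 9.24%, 9.66% and 7.96% in wild-type mice. None of these 3 shares overlapped between genotypes. The mean share of Grin2c differed by -16.8 percentage points with all mice and by -11.3 without deficient mouse 2. That of Grin2b differed by 13.7 percentage points with all mice and by 8.67 without deficient mouse 2. The mean share of Grin2a was 7.59 ± 0.788% in deficient and 6.81 ± 0.627% in wild-type mice (SD, n = 3 each), with overlap. Shares in a family are bound to each other, so a lower share of Grin2c raises the rest, and no test was made of them.

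The summed level of the AMPA subunit genes was 1575, 1728 and 1785 CPM in deficient mice, against 1649, 1674 and 1714 CPM in wild-type mice. Gria1 was at 478.7 to 507.0 CPM in deficient and 470.6 to 494.8 CPM in wild-type mice. Gria2, the gene of the subunit that keeps AMPA receptors from passing calcium, had 620.1, 771.9 and 770.7 CPM in deficient mice, against 682.2, 686.5 and 714.5 CPM in wild-type mice, with deficient mouse 1 below and mice 2 and 3 above them. Its log2 fold change was 0.05 ± 0.08 (SE, adjusted p = 0.721 in edgeR), and that of the X-linked Gria3 was 0.13 ± 0.08 (SE, adjusted p = 0.335 in edgeR, 0.0175 without deficient mouse 1). The value of Gria3 was 0.07 with deficient mouse 2 left out (adjusted p = 0.638 in edgeR). Gria4 made up 15.8 ± 3.50% of the AMPA level per kilobase in deficient and 19.2 ± 1.54% in wild-type mice (SD, n = 3 each), and Gria1 43.5 ± 0.65% in deficient and 42.6 ± 1.26% in wild-type mice. The Gria4 shares by mouse were 19.3%, 12.3% and 15.8% in deficient mice, against 17.7%, 20.7% and 19.1% in wild-type mice. The mean difference was -3.38 percentage points with all mice, -1.62 without deficient mouse 2 and -5.12 without deficient mouse 1.

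Grid1, a delta receptor gene, had 81.0, 94.1 and 85.0 CPM in deficient mice, against 75.4, 76.8 and 76.4 CPM in wild-type mice. It did not overlap between genotypes, but its log2 fold change of 0.19 ± 0.06 (SE) did not pass (adjusted p = 0.102 in edgeR, 0.0302 without deficient mouse 1). With deficient mouse 2 left out it was 0.12 (adjusted p = 0.19 in edgeR). Among kainate receptor genes, the subunit gene Grik5 had 212.5, 255.5 and 226.4 CPM in deficient mice, against 209.7, 199.3 and 209.7 CPM in wild-type mice. Grik1, another subunit gene, had 16.5, 13.4 and 14.4 CPM in deficient mice, against 18.9, 16.8 and 17.1 CPM in wild-type mice. Both were without overlap, at log2 fold changes of 0.17 ± 0.07 and -0.26 ± 0.10 (SE), and neither passed (adjusted p = 0.178 and 0.143 in edgeR). Both passed without deficient mouse 1 (adjusted p = 0.0451 and 0.0405 in edgeR). Without deficient mouse 2 they were at 0.09 and -0.19 (adjusted p = 0.359 and 0.29 in edgeR). Grik2, at -0.08 ± 0.05 (SE, adjusted p = 0.336 in edgeR), Grik3 and Grik4 overlapped between genotypes.

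Of the remaining metabotropic glutamate genes, Grm5, the main group I receptor gene of forebrain neurons, had 230.8, 296.3 and 271.7 CPM in deficient mice, against 226.2, 221.7 and 233.4 CPM in wild-type mice. The value of deficient mouse 1 was inside the range of the wild-type mice. Grm5 did not pass, at a log2 fold change of 0.23 ± 0.08 (SE) and adjusted p of 0.136 in edgeR (0.0105 without deficient mouse 1). It was 0.15 with deficient mouse 2 left out (adjusted p = 0.255 in edgeR). Grm2, Grm3 and Grm7, genes of receptors coupled to inhibition of adenylyl cyclase, were within 49.7 to 75.8 CPM in every mouse and overlapped between genotypes. The summed level of the 8 genes was 696.4 ± 25.4 CPM in deficient and 732.0 ± 25.3 CPM in wild-type mice (SD, n = 3 each).

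Within the GABA-A genes, 12 of 15 tested had a positive log2 fold change, beside 7602 of all 15127 genes tested, and 1 passed (6.67%, beside 4.93% of all genes tested). Gabrb2, a beta subunit gene of the chromosome 11 cluster, had 200.3, 217.9 and 240.7 CPM in deficient mice, against 215.9, 230.6 and 258.0 CPM in wild-type mice. The genotypes overlapped, and its log2 fold change of -0.10 ± 0.08 (SE) did not pass (adjusted p = 0.505 in edgeR). In the chromosome 7 cluster, Gabra5, the alpha5 subunit gene of hippocampal extrasynaptic receptors, had 33.4, 46.8 and 39.2 CPM in deficient mice, against 31.4, 31.9 and 31.8 CPM in wild-type mice. Gabra5 did not overlap between genotypes and stood at 0.33 ± 0.11 (log2 fold change, SE; adjusted p = 0.108 in edgeR, 0.0124 without deficient mouse 1). With deficient mouse 2 left out it was at 0.20 (adjusted p = 0.174 in edgeR). Its neighbour Gabrg3, a gamma subunit gene, had 33.8, 49.1 and 43.5 CPM in deficient mice, against 35.9, 37.9 and 36.9 CPM in wild-type mice, so deficient mouse 1 was the lowest of all and mice 2 and 3 the highest. It did not pass with all mice (log2 fold change 0.19 ± 0.12, SE, adjusted p = 0.342 in edgeR) and passed without deficient mouse 1 (adjusted p = 0.0185 in edgeR). Without deficient mouse 2 its log2 fold change was 0.07.

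In the chromosome 5 cluster, Gabra2, an alpha subunit gene of forebrain synapses, had 67.5, 85.8 and 125.8 CPM in deficient mice, against 66.1, 71.1 and 73.2 CPM in wild-type mice, so deficient mouse 3 was far above the rest and mouse 1 inside the wild-type range. The log2 fold change was 0.41 ± 0.19 (SE, adjusted p = 0.215 in edgeR), 0.13 without deficient mouse 3, and 0.59 without deficient mouse 1, where it passed (adjusted p = 0.0232 in edgeR). The sum of 9 olfactory bulb markers was 75.3, 92.1 and 174.7 CPM in deficient mice, against 79.3, 87.3 and 93.3 CPM in wild-type mice, so it was also highest in deficient mouse 3. The part of that tissue in the value of Gabra2 was not tested. In the same mouse Gabrg1 was at 40.6 CPM, against 34.9 to 41.1 CPM in wild-type mice, and Gabrb1 was at 47.2 CPM, against 36.0 to 44.9 CPM in wild-type mice. Gabrg1 and Gabrb1 had log2 fold changes of 0.18 ± 0.08 and 0.13 ± 0.10 (SE, adjusted p = 0.203 and 0.418 in edgeR). Without deficient mouse 2 both were at 0.11 (adjusted p = 0.433 and 0.588 in edgeR). Gabrr2, a rho subunit gene, was at 1.47 to 2.59 CPM in deficient and 1.18 to 1.81 CPM in wild-type mice.

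Both GABA-B receptor genes stayed close between genotypes. Gabbr1 was at 859.2 to 939.9 CPM in deficient and 862.4 to 891.7 CPM in wild-type mice, and Gabbr2, which encodes the subunit that couples to G proteins, at 422.3 to 451.7 CPM in deficient and 416.3 to 458.7 CPM in wild-type mice. The log2 fold changes were 0.02 ± 0.05 for each (SE, adjusted p = 0.832 for Gabbr1 and 0.82 for Gabbr2 in edgeR).

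**Figure D5:**
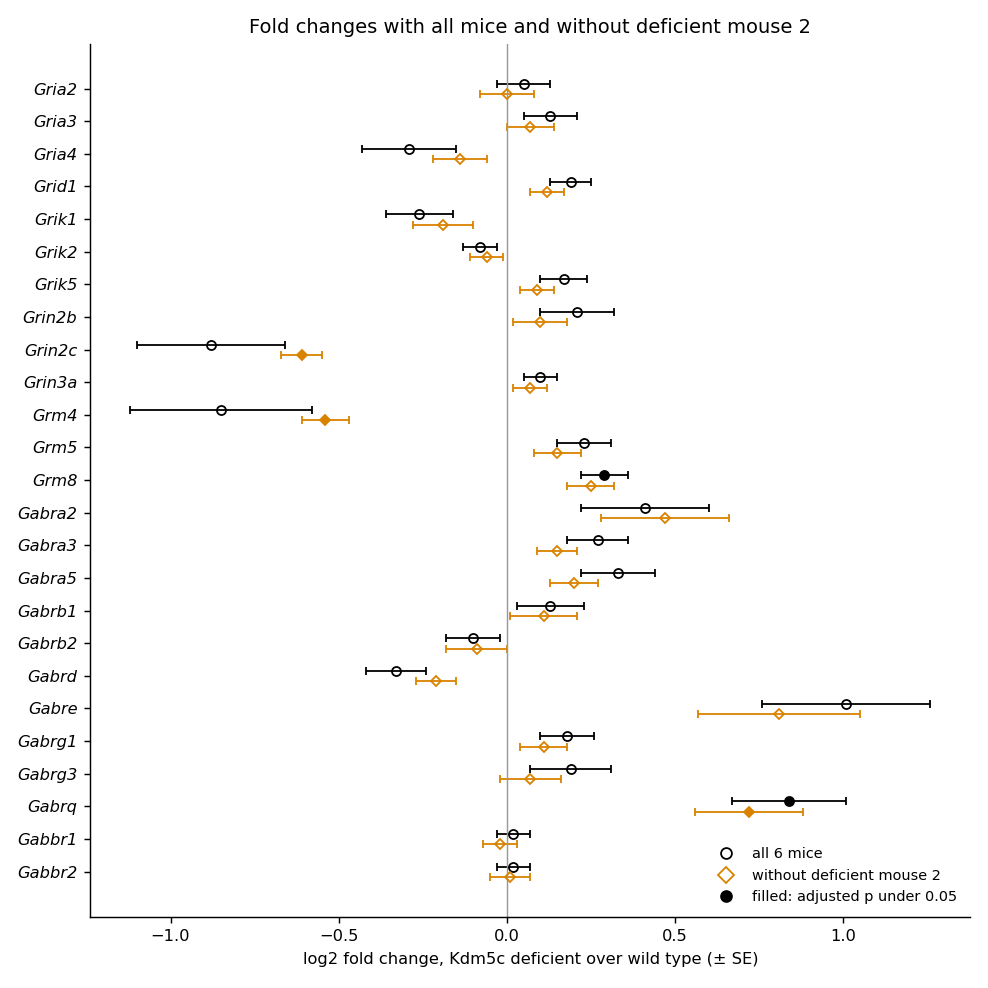
Log2 fold change of receptor genes named in the text, deficient over wild type, with SE, for all 6 mice (circles) and without deficient mouse 2 (diamonds). Filled symbols have an adjusted p under 0.05. Grin2c is at -0.88 with all mice and -0.61 without this mouse, Grm4 at -0.85 and -0.54, and Gabrq at 0.84 and 0.72.

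Few genes that work with these receptors passed the test. Of 70 such genes, all tested, 1 was lower and none higher at an adjusted p under 0.05 in edgeR (1.43%, beside 4.93% of all genes tested). At an unadjusted p under 0.05 there were 19 (27.1%, beside 24.9% of all genes tested), and the median log2 fold change was 0.05. DESeq2 called 5 higher and 1 lower, beside 8.31% of the genes it adjusted. Without deficient mouse 1 the count in edgeR was 17 higher and 5 lower (31.4% in all), beside 7.16% and 6.48% of all genes (13.6% in all). The gene that fell was Neto2, which encodes an auxiliary subunit of kainate receptors that also binds the chloride transporter KCC2. Neto2 had 77.4, 78.3 and 85.4 CPM in deficient mice, against 96.9, 107.2 and 102.9 CPM in wild-type mice, without overlap. Its exons overlap Mir8109 on the other strand. Neto2 passed at a log2 fold change of -0.35 ± 0.06 (SE) and adjusted p of 0.0226 in edgeR, and the call held without deficient mouse 2 (adjusted p = 0.0208 in edgeR). It was lost without wild-type mice 1, 2 and 3, at adjusted p of 0.0713, 0.107 and 0.0764 in edgeR.

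By group, 1 of 16 AMPA and kainate auxiliary subunit genes passed, and 0 of 21 glutamate receptor scaffold genes, 0 of 12 GABA receptor scaffold and auxiliary genes and 0 of 21 genes of glutamate and GABA synthesis, breakdown and transport, beside 4.93% of all genes tested. With groups of this size, so few calls are near that share. The AMPA auxiliary gene Cnih2 had 131.5, 170.0 and 142.2 CPM in deficient mice, against 119.7, 106.1 and 120.3 CPM in wild-type mice (log2 fold change 0.36 ± 0.09, SE, adjusted p = 0.0637 in edgeR). Homer1, a scaffold gene of group I metabotropic receptors whose short form is induced by activity, was at 137.9, 198.3 and 191.1 CPM in deficient mice, against 126.6, 128.5 and 140.9 CPM in wild-type mice, so deficient mouse 1 overlapped. Its log2 fold change was 0.41 ± 0.12 (SE, adjusted p = 0.0861 in edgeR), and that of the scaffold gene Grip2 was -0.24 ± 0.08 (SE, adjusted p = 0.0999 in edgeR). Slc1a2, the main glial glutamate transporter gene, was at 2613, 3077 and 3031 CPM in deficient mice, against 2408, 2421 and 2605 CPM in wild-type mice, with a log2 fold change, with SE, of 0.23 ± 0.07 (adjusted p = 0.087 in edgeR). Glul, the gene of glutamine synthetase, had 0.15 ± 0.06 (SE, adjusted p = 0.138 in edgeR) and passed without deficient mouse 2 (adjusted p = 0.0407 in edgeR). The chloride importer gene Slc12a2 had -0.25 ± 0.09 and Gabarap, which encodes a GABA-A receptor-associated protein, 0.12 ± 0.05 (log2 fold change, SE, adjusted p = 0.138 and 0.18 in edgeR). Without deficient mouse 2, log2 fold changes were 0.25 for Cnih2, 0.32 for Homer1, -0.2 for Grip2 and 0.19 for Slc1a2. Those of Slc12a2 and Gabarap were -0.15 and 0.1 in that fit, and none of these 6 genes passed in it.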

How the data were processed

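Each sample is RNA from the brain of 1 mouse. Per the labels' protocols, RNA was extracted with RNeasy Mini columns and sequenced as TruSeq mRNA libraries. Build GRCm38 and DESeq2 are named in the submitters' processing notes. Not given in the sources used here are the strandedness, aligner, counter and annotation.

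Raw counts per gene symbol and mouse, per the file headers, were used as deposited. The authors also deposited a mean normalized signal, a log2 fold change of wild type over deficient with standard error, an unadjusted p-value and a test score. Only that log2 fold change is quoted, for comparison.

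The analysis used edgeR 4.0.16 under R 4.3.3. Genes passing edgeR's expression filter (minimum count 10, minimum total count 15) were TMM-scaled, and deficient mice were set against wild-type mice in the quasi-likelihood test, without covariates. P-values were adjusted over the 15127 tested genes (Benjamini-Hochberg) and called under 0.05. Standard errors came from the F statistic, and the test was tested on simulated data. CPM use the scaled library totals, and CPM per kilobase use union exon lengths of GENCODE M21 (GRCm38). Without a stated use of strand, reads of overlapping genes cannot be told apart. Totals were 20221675 to 24555412 counts, so depth was similar, and means, SD and tests rest on 3 mice per genotype, where an exact permutation test of single values could not go below 0.1.

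Fold changes are given for members that pass and for the 3 members of each class (or GABA-A subunit type) with the smallest p-values, and for partner genes that pass or are among the 2 smallest of their list. Some receptor genes enter the counts and class sums but are not reported here by name. Receptor genes, partner lists and marker lists were chosen with earlier results of these data known. Alternatives were median-ratio, upper quartile and no scaling, no filter, a mean of at least 5 CPM, DESeq2 1.42.0, limma-voom (limma 3.58.1), the replicate number as a block, offsets for GC content and length, and leaving out each mouse.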

Additional observations from a re-analysis of the deposited data

How the results depend on the processing

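Sums and shares moved with the mice left out. The log2 ratio of the cerebellar marker sum was -0.90 with all mice, -0.42 without deficient mouse 2 and -1.43 without deficient mouse 1, and that of the hindbrain sum was -0.81 with all mice and ranged from -1.43 to -0.55. The hypothalamic sum ranged from 0.55 to 1.0. The AMPA sum ranged from -0.02 to 0.07, the NMDA sum from -0.03 to 0.08 and the GABA-B sum from -0.01 to 0.05, so none of these 3 kept its sign. The Gria4 share ranged from -5.12 to -1.62 and the Grin2c share from -21.0 to -11.3 percentage points. Counts of called genes also moved. Higher receptor genes ranged from 0 to 15 and lower ones from 0 to 5 over the fits that left out 1 mouse, against 2 and 0 with all mice. Over all genes, 0.289% to 13.6% were called in those fits, against 4.93% with all mice. Lower receptor genes numbered 3 without a low-count filter, 1 with GC and length offsets and 1 with DESeq2. Higher partner genes ranged from 0 to 17 and lower ones from 0 to 5 when 1 mouse was left out, against 0 and 1 with all mice, and higher ones numbered 2 without a low-count filter, 3 with GC and length offsets and 5 with DESeq2. DESeq2 called 8.31% of all genes it adjusted. For the fits without a filter and with offsets no share over all genes is given. Their counts are therefore not read as a result about these genes. The cause of these shifts was not tested.

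With the replicate number as a block, 1 receptor gene was higher (Gabrq, adjusted p = 0.0374 by edgeR) and 0 partner genes were lower. Over all genes, 58 of the 15127 tested were called in that fit. Deviations from the genotype mean had correlations of -0.06, -0.06 and 0.14 between same-numbered mice. No mouse but wild-type and deficient mouse 3 correlated best with its own number. With 3 mice per genotype, and deficient mouse 2 apart in cerebellar RNA, this check cannot show whether the numbers pair the mice.

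Gabbr1 turned to -0.018 without deficient mouse 2, Gabbr2 to -0.004 without wild-type mouse 1, and Grik2 to 0.061 with GC and length offsets (log2 fold changes). Over the fits that left out 1 mouse, Gabbr1 ranged from -0.018 to 0.05 and Gabbr2 from -0.004 to 0.067. Grin2c also passed with GC and length offsets (adjusted p = 0.041 by edgeR). Genes near 1 CPM, such as Grin3b and Gabrr2, are limited by depth.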
